A study of Mus musculus with 6 samples.

Results

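Glycolysis converts glucose to pyruvate and lactate, and endothelial cells are known to draw much of their ATP from it. The hypoxia-inducible factors (HIF) are pairs of an alpha subunit and ARNT. When oxygen is present, prolyl hydroxylases mark the alpha subunits and the VHL protein targets them for degradation. When oxygen is short, the factors switch on many glycolytic genes together with genes for mitophagy, pH control and collagen hydroxylation. The kidney has a steep oxygen gradient, and its endothelium is known for high expression of the alpha subunit HIF-2 alpha, encoded by Epas1.

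Described here are 31 genes of 55487 in the deposited matrix, taken by symbol from a fixed list. They comprise 18 genes from glucose uptake to lactate, 7 genes listed as HIF targets outside glycolysis, and 6 genes of the HIF machinery. Aldoa has 2 rows in the matrix, and the row with the higher mean was used. The other row had at most 0.188 FPKM (fragments normalized to exon length and library size) in I-PpoI libraries and 1.08 FPKM in control libraries.

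RNA was measured in kidney endothelial cells from 3 I-PpoI mice and 3 control mice. The I-PpoI mice carried VE-cadherin Cre and a STOP-I-PpoI transgene, labelled at ROSA26 in mouse 1, ROSA27 in mouse 2 and ROSA28 in mouse 3. Whether these are different loci or an error of labelling is not given in the sources used here. Controls were wild-type littermates, without the recombinase or the transgene as far as the labels say. I-PpoI is an endonuclease that cuts DNA, and the VE-cadherin promoter directs Cre to endothelium. Both groups, all in batch 1, were switched to a diet with 60% of calories as fat at the age of 8 weeks and stayed on it for 4 weeks. Cells were isolated from digested whole kidneys with CD31 antibody and magnetic beads.

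The libraries were unequal before any gene was compared. I-PpoI mice 1, 2 and 3 held 1590957, 834149 and 13324303 recovered fragments, and control mice held 14081222 to 16954480. The mitochondrial minus strand took 68.2% and 70.6% of mitochondrial fragments in mice 1 and 2 of the I-PpoI group, but 0.0821% in mouse 3, and 0.0473 to 0.0664% in controls. A gene of these 2 libraries can therefore hold fragments of a neighbour on the opposite strand. Mitochondrial genes took 6.42 to 48.2% of fragments in I-PpoI libraries and 8.83 to 18.3% in controls. All 15 endothelial markers were detected in every library, and their summed level was 951 to 2307 FPKM in I-PpoI mice, against 3091 to 3412 FPKM in controls. As deposited, 12 of 15 were lower without overlap, against 45.1% of all tested genes. After scaling each library by the median of ratios, 4 of 15 were lower without overlap, against 9.76% of all tested genes. In bulk RNA, fewer cells of a type and less RNA per cell cannot be told apart. Xist, transcribed from the inactive X chromosome, had 0, 70 and 4739 fragments in I-PpoI mice 1, 2 and 3 and 0 to 4 in controls, so sex and genotype are partly confounded.

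A mean of 1 FPKM or more was reached by 14962 genes, and limma on log2(FPKM + 1) called 0 genes at a Benjamini-Hochberg adjusted p under 0.05, or 0% of genes tested. Of these genes, 633 were higher and 4824 lower at an unadjusted p under 0.05, and the median log2 fold change, I-PpoI minus control, was -0.65. Of the 31 members, 29 passed the filter and 0 were called. At an unadjusted p under 0.05, 1 member was higher and 8 were lower, and limma's adjusted p ran from 0.132 to 0.958. The higher member was Car9, which passed the filter only through its I-PpoI values. The members' median log2 fold change was -0.60, close to that of all genes. Over all 31 members, 13 were lower and 1 was higher in I-PpoI mice without overlap of the libraries, and 17 overlapped. Among all tested genes, 45.1% were lower and 2.24% higher without overlap, so the share of lower members was near the background.

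Because the whole matrix was shifted, the fit was repeated after scaling each library by the median of ratios. After that scaling the median of all genes was 0.02. The members' median was 0.10, with 17 above 0 and 12 below, and 0 of 29 were called by limma. After scaling, 3 members, Pfkp, Eno1 and Car9, were higher without overlap and 0 were lower. The background was 7.65% higher and 9.76% lower among all genes. Glycolytic members had a median of 0.35 after scaling, HIF targets -0.14 and the HIF machinery -0.66. As deposited, the same medians were -0.45, -0.92 and -1.39.

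**Figure D1:**
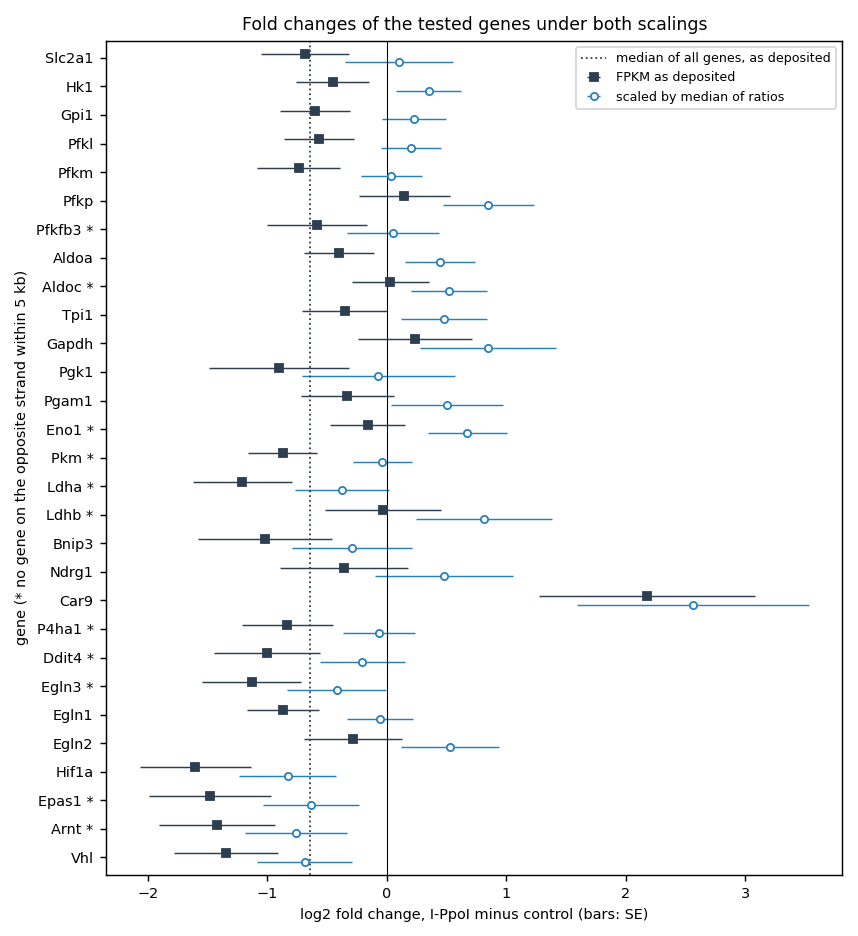
Log2 fold change of the 29 tested members, I-PpoI minus control on log2(FPKM + 1), with SE bars, as deposited and after median-of-ratios scaling; the dotted line is the median of all genes as deposited. Hif1a, Epas1, Arnt and Vhl lie at the left under both scalings, from -1.60 to -1.35 as deposited, and Car9 lies far to the right.

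I-PpoI mouse 3 was the only I-PpoI library whose depth and strand pattern resembled the controls. It also had the highest mitochondrial share, 48.2% of fragments, against 8.83 to 18.3% in controls. Its sex transcripts differed too, with 4739 Xist and 0 Ddx3y fragments, against 0 to 4 and 959 to 1672 in controls. Without I-PpoI mouse 3, limma called 12 of 29 members, 1 higher and 11 lower, at adjusted p under 0.05, against 56.4% of all genes. Those members were Pfkfb3, Pgk1, Pkm, Ldha, Bnip3, P4ha1, Egln3, Egln1, Hif1a, Arnt and Vhl on the lower side and Car9 on the higher. Taken alone and scaled by the median of ratios, I-PpoI mouse 3 lay above every control for 14 of the 29 members, below every control for 2 and within their range for 13. For all genes those shares were 22.2% above and 26.1% below. The 14 were Pfkp, Pfkfb3, Aldoc, Tpi1, Pgk1, Pgam1, Eno1, Ldhb, Bnip3, Ndrg1, Car9, P4ha1, Egln3 and Egln1, and the 2 were Gapdh and Epas1. This is 1 library, and no test was made of it. As deposited, the same library lay below every control for 20 of the 29 members and above for 3, and the shares of all genes were 70.7% and 6.17%.

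**Figure D2:**
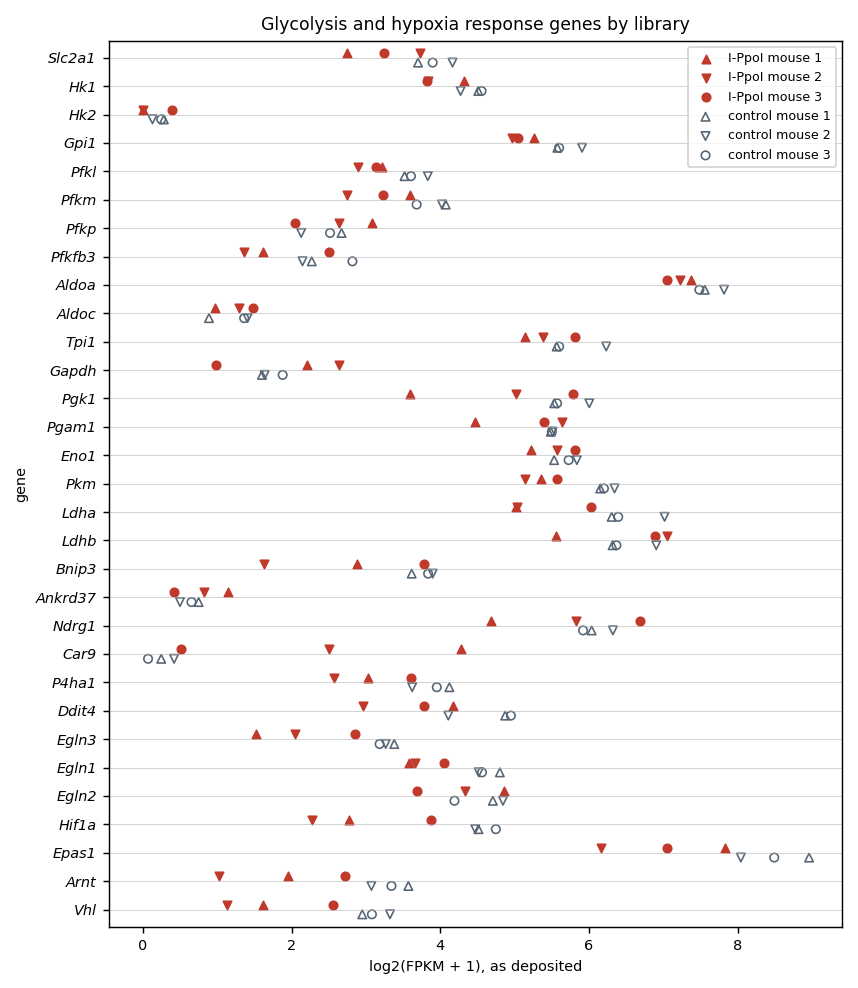
FPKM of all 31 members as log2(FPKM + 1), filled symbols for I-PpoI and open symbols for control, with the symbol shape giving the mouse number. Epas1 and Aldoa were the highest in controls, I-PpoI mouse 3 often lay nearest to the controls, and Hk2, Ankrd37 and Car9 sat near 0 in controls.

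Glucose enters endothelium mainly through the transporter GLUT1, encoded by Slc2a1. Slc2a1 had 5.69, 12.3 and 8.48 FPKM in I-PpoI mice 1, 2 and 3, against 12.0, 16.9 and 13.9 FPKM in control mice 1, 2 and 3. I-PpoI mouse 2 was inside the control range and I-PpoI mice 1 and 3 lay below it.

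Hexokinases trap glucose as glucose 6-phosphate. Hk1 had 19.0, 13.3 and 13.1 FPKM in I-PpoI mice, against 21.8, 18.3 and 22.5 FPKM in controls, and the groups overlapped at I-PpoI mouse 1. The log2 fold change of Hk1 was -0.45 with SE 0.31 as deposited and 0.35 with SE 0.27 after scaling. Hk2, an inducible hexokinase, had 0, 0 and 0.314 FPKM in I-PpoI mice, against 0.218, 0.0952 and 0.188 FPKM in controls. Its 0 fragments in I-PpoI mice 1 and 2 allow up to 3 fragments in each by counting error, so Hk2 was not measurable at that depth and was not tested. Hk1 was the dominant of both hexokinases in all 6 libraries.

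Gpi1, the isomerase that makes fructose 6-phosphate, had 37.3, 30.2 and 32.0 FPKM in I-PpoI mice, against 46.6, 58.9 and 47.4 FPKM in controls. All I-PpoI libraries lay below all controls. Phosphofructokinase commits sugar to glycolysis. Its muscle-type gene Pfkm had 11.0, 5.72 and 8.36 FPKM in I-PpoI mice, against 15.8, 15.3 and 11.8 FPKM in controls, again without overlap. The liver-type gene Pfkl ranged from 6.44 to 8.31 FPKM in I-PpoI mice and from 10.5 to 13.2 FPKM in controls. The platelet-type gene Pfkp had 7.44, 5.25 and 3.11 FPKM in I-PpoI mice, against 5.38, 3.38 and 4.73 FPKM in controls, with the groups overlapping. Pfkp was one of the 3 tested members farthest above the median of all genes, with a log2 fold change of 0.15 (SE 0.38, limma adjusted p = 0.756). Pfkfb3, which makes the phosphofructokinase activator fructose 2,6-bisphosphate and is known for its role in vessel sprouting, had 2.06, 1.58 and 4.68 FPKM in I-PpoI mice, against 3.83, 3.43 and 6.06 FPKM in controls. The values of I-PpoI mice 1 and 2 rest on 25 and 10 fragments.

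Aldolase splits fructose 1,6-bisphosphate. Aldoa was the highest glycolytic gene in controls, with 164, 149 and 132 FPKM in I-PpoI mice, against 187, 224 and 178 FPKM in controls. The groups did not overlap, but the log2 fold change of -0.40 (SE 0.29, limma adjusted p = 0.289) was smaller in size than the shift of all genes. Aldoc, the brain-type aldolase, ranged from 0.955 to 1.79 FPKM in I-PpoI mice and from 0.854 to 1.66 FPKM in controls. Tpi1, which interconverts the triose phosphates, had 34.2, 40.8 and 55.0 FPKM in I-PpoI mice, against 46.3, 74.1 and 47.4 FPKM in controls, with I-PpoI mouse 3 inside the control range.

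Gapdh, which oxidises glyceraldehyde 3-phosphate and is widely used as a reference gene, was listed far lower than its neighbours in the pathway. Gapdh had 3.62, 5.20 and 0.980 FPKM in I-PpoI mice, against 2.04, 2.11 and 2.68 FPKM in controls, resting on 24, 18 and 54 fragments and on 123 to 188 fragments. I-PpoI mice 1 and 2 lay above all controls and I-PpoI mouse 3 below them, so the log2 fold change of 0.23 (SE 0.48) averages opposite values. Of the 50-base windows of the annotated Gapdh transcripts, 24.7% also occur in transcripts of other genes. The 50 gene models that share at least 5% of those windows, 48 of them annotated as pseudogenes, summed to 48.2, 57.9 and 92.7 FPKM in I-PpoI mice, against 98.5, 136 and 96.1 FPKM in controls. The pseudogene Gm5559 alone had 22.4, 40.5 and 71.8 FPKM in I-PpoI mice, against 74.7, 111 and 74.5 FPKM in controls. The Gapdh value can depend on how shared fragments were assigned, which was not tested, and is uncertain as a level.

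**Figure D3:**
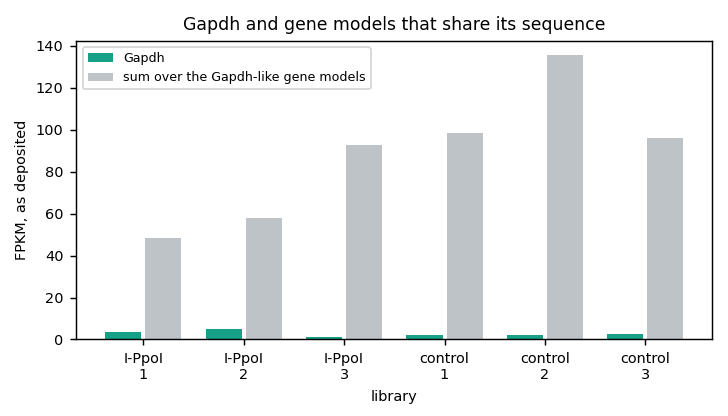
FPKM of Gapdh and the sum over 50 gene models that share its sequence, for each library as deposited. Gapdh stays at or below 5.20 FPKM in every library, while the models sum to at least 48.2 FPKM in I-PpoI and 96.1 FPKM in control libraries.

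Of the next steps, those of phosphoglycerate kinase and pyruvate kinase return ATP. Pgk1, phosphoglycerate kinase, had 11.1, 31.4 and 54.1 FPKM in I-PpoI mice, against 45.3, 63.1 and 46.5 FPKM in controls. Pgam1, phosphoglycerate mutase, had 21.1, 48.8 and 41.2 FPKM in I-PpoI mice, against 43.8, 44.5 and 44.2 FPKM in controls. Controls of Pgam1 were within 1 FPKM of each other, whereas the I-PpoI libraries lay on both sides of them. Eno1, enolase, had 36.4, 46.4 and 55.2 FPKM in I-PpoI mice, against 45.2, 56.1 and 51.9 FPKM in controls. Pkm, pyruvate kinase, had 40.0, 34.4 and 46.4 FPKM in I-PpoI mice, against 70.0, 80.1 and 72.5 FPKM in controls. Pkm did not overlap as deposited, and its log2 fold change of -0.87 (SE 0.29, limma adjusted p = 0.132) became -0.04 after scaling. Shares of 53.9% of the windows of Pgk1, 36.2% of Pgam1, 26.0% of Eno1 and 25.8% of Pkm occur in other genes' transcripts, but the models sharing them had at most 3.88 FPKM in any library.

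Lactate dehydrogenase interconverts pyruvate and lactate as tetramers of the subunits of Ldha and Ldhb, the A subunit being known to favour lactate formation and the B subunit its oxidation. Ldha is a classical HIF target. In GRCm38, Ldha (ENSMUSG00000063229) lies at chr7:46841475-46855627 on the plus strand and Ldhb (ENSMUSG00000030246) at chr6:142490249-142507957 on the minus strand. The promoter windows of both genes are shown because the ratio of this pair is described below. They run from 250 bases before to 50 bases after the start in RefSeq on build GRCm38.p6, read 5′ to 3′ on the gene's strand, at chr7:46845554-46845853 on the plus strand for the first Ldha start and chr6:142507908-142508207 on the minus strand for Ldhb. Capitals mark ACGTG or GCGTG on either strand, the letters of the core of a hypoxia response element.
Ldha: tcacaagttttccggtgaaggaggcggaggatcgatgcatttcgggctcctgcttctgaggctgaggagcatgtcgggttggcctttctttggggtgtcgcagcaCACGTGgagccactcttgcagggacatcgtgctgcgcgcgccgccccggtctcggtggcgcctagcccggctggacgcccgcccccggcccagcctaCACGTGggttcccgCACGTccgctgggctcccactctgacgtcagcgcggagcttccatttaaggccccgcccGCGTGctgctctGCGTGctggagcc
Ldhb: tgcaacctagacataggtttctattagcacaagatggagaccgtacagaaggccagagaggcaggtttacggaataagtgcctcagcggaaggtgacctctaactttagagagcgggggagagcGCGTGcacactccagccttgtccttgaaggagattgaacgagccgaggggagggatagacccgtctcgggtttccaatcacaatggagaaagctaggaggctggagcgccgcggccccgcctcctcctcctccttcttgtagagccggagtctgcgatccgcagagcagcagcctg
The Ldha window shown holds 5 ACGTG and 2 GCGTG matches, and the Ldhb window holds 0 and 1. Both strands were counted, so that a palindromic CACGTG counts on each strand. The window of the second Ldha start, at chr7:46846832-46847131, holds 0 ACGTG and 2 GCGTG matches and is not shown. Of 32851 promoters in the table, 19.6% hold ACGTG and 32.4% hold GCGTG, and of the 42 promoters of 29 members, 57.1% and 59.5% hold them. A match is a string of letters and was not tested for binding.

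Ldha had 31.5, 31.7 and 64.1 FPKM in I-PpoI mice, against 78.0, 128 and 82.9 FPKM in controls, without overlap. Ldhb had 46.1, 132 and 117 FPKM in I-PpoI mice, against 78.7, 119 and 81.5 FPKM in controls, with I-PpoI mouse 1 below and mouse 2 above the control range. The ratio of Ldhb to Ldha, which does not depend on how a library is scaled, was 1.46, 4.14 and 1.83 in I-PpoI mice and 1.01, 0.925 and 0.983 in controls. The ratio was higher in 3 of 3 I-PpoI mice than in any control, including I-PpoI mouse 3. The mean log2 ratio was 1.16 ± 0.79 in I-PpoI mice and -0.04 ± 0.06 in controls (SD, n = 3 each), a difference of 1.20. Without I-PpoI mouse 2 the difference was 0.75. An exact two-sided permutation test gave p = 0.10, the smallest that 3 against 3 allows, and 0.56 after Benjamini-Hochberg adjustment over the 7 ratios tested. The fragments behind the ratio were 116, 173 and 2450 for Ldhb and 167, 88 and 2826 for Ldha in I-PpoI mice. No gene lies on the opposite strand within 5 kb of either. Proximal tubule markers summed to 110, 377 and 602 FPKM in I-PpoI mice, against 115 to 240 FPKM in controls, with 1 of 10, Slc5a2, higher without overlap (36.4 to 62.0 FPKM in I-PpoI mice, at most 29.2 FPKM in controls) and Slc22a8 at 0 in I-PpoI mouse 1. The megalin gene Lrp2, a defining tubule marker, had 0.784, 14.3 and 66.5 FPKM in I-PpoI mice, against 2.33, 3.65 and 3.12 FPKM in controls. Thick ascending limb markers summed to 36.5, 67.4 and 118 FPKM in I-PpoI mice, against 114, 147 and 168 FPKM in controls. The part of tubule RNA in the ratio was not tested.

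**Figure D4:**
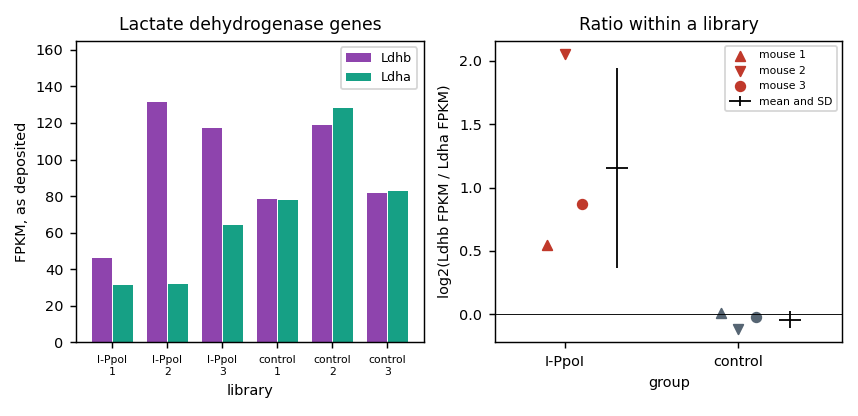
Left, FPKM of Ldhb and Ldha in each library; right, log2 of their ratio within each library with the mean and SD per group. The log2 ratio is at least 0.55 in each I-PpoI library, and at most 0.013 in each control library.

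Among the other paralogs the ratios overlapped between groups. Of the 8 pairs, only Ldhb and Ldha both lack an opposite-strand gene within 5 kb. The part of opposite-strand fragments in the other ratios was not tested. The log2 ratio of Pfkp to Pfkl averaged -0.59 ± 0.64 in I-PpoI mice and -1.39 ± 0.52 in controls (SD, n = 3 each, exact permutation p = 0.30). Egln2 over Egln1 averaged 0.57 ± 0.88 in I-PpoI mice and -0.05 ± 0.37 in controls (exact permutation p = 0.30). Epas1 over Hif1a averaged 4.25 ± 1.01 in I-PpoI mice and 3.98 ± 0.47 in controls (exact permutation p = 0.70). The ratios of Pfkm to Pfkl, Aldoc to Aldoa and Egln3 to Egln1 gave exact permutation p of 0.50, 0.40 and 0.40. The ratio of Hk1 to Hk2 could not be formed where Hk2 was 0.

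The members listed as HIF targets act outside glycolysis. Glycolytic members that are also HIF targets, such as Ldha, were counted with glycolysis. Bnip3, a mitophagy receptor, had 6.33, 2.11 and 12.7 FPKM in I-PpoI mice, against 11.3, 13.9 and 13.3 FPKM in controls, with I-PpoI mouse 3 inside the control range. P4ha1, a catalytic subunit of collagen prolyl hydroxylase, had 7.12, 4.93 and 11.2 FPKM in I-PpoI mice, against 16.4, 11.3 and 14.5 FPKM in controls. Egln3, the most hypoxia-inducible of the prolyl hydroxylases, had 1.87, 3.14 and 6.26 FPKM in I-PpoI mice, against 9.42, 8.62 and 8.09 FPKM in controls. Both P4ha1 and Egln3 were lower in every I-PpoI library, and Egln3 rests on 8, 7 and 222 fragments in I-PpoI mice and 323 to 405 in controls. Ddit4, an inhibitor of mTORC1, had 17.1, 6.80 and 12.7 FPKM in I-PpoI mice, against 28.3, 16.2 and 29.9 FPKM in controls, and overlapped at I-PpoI mouse 1. Ndrg1, a stress-response gene, had 24.8, 55.7 and 101 FPKM in I-PpoI mice, against 64.5, 78.9 and 59.5 FPKM in controls. I-PpoI mouse 3 was the highest of all 6 libraries for Ndrg1 and I-PpoI mice 1 and 2 were the lowest. Ankrd37, an ankyrin-repeat gene, had 1.22, 0.776 and 0.341 FPKM in I-PpoI mice, against 0.684, 0.416 and 0.575 FPKM in controls, and was below the filter.

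Car9 (ENSMUSG00000028463, chr4:43506966-43513729, plus strand), a cell-surface carbonic anhydrase, was the only member higher in every I-PpoI library. Car9 had 18.4, 4.66 and 0.423 FPKM in I-PpoI mice, against 0.188, 0.339 and 0.0512 FPKM in controls, from 68, 9 and 13 fragments and from 7, 11 and 2 fragments. Its mean was 0.193 FPKM in controls and 7.83 FPKM in I-PpoI mice. Car9 thus passed the filter of 1 FPKM only through the group where it was high. The log2 fold change was 2.18 (SE 0.90, limma adjusted p = 0.135), which is not independent of that filter. It was 1.26 without I-PpoI mouse 1, 3.14 without I-PpoI mouse 3 and 3.75 with a pseudocount of 0.1. I-PpoI mouse 3 was close to the highest control, and mouse 1 was far above both other I-PpoI libraries. Tpm2, tropomyosin 2, lies within 5 kb on the opposite strand and had 48.0, 48.0 and 23.9 FPKM in I-PpoI mice, against 58.5, 58.6 and 36.5 FPKM in controls. Its annotated exons do not overlap those of Car9. Gm12454, whose exons do, had 1.73, 2.21 and 1.18 FPKM in I-PpoI mice, against 1.49, 0.591 and 0.327 FPKM in controls. The part of either in the Car9 value was not tested.

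The HIF machinery held the 4 lowest fold changes of the tested members. Hif1a, the oxygen-regulated subunit HIF-1 alpha, had 5.82, 3.85 and 13.6 FPKM in I-PpoI mice, against 21.8, 21.2 and 25.8 FPKM in controls. Epas1 had 227, 70.5 and 131 FPKM in I-PpoI mice, against 496, 262 and 358 FPKM in controls, and was the highest member in controls at 372 ± 117 FPKM (SD, n = 3). Arnt, their common partner, had 2.88, 1.04 and 5.61 FPKM in I-PpoI mice, against 10.9, 7.42 and 9.15 FPKM in controls. Epas1 (ENSMUSG00000024140) lies at chr17:86753700-86833410 and Hif1a (ENSMUSG00000021109) at chr12:73901375-73947530, both on the plus strand. In each case every I-PpoI library lay below every control, and in Hif1a and Arnt I-PpoI mouse 3 was the nearest to them. Vhl had 2.08, 1.19 and 4.91 FPKM in I-PpoI mice, against 6.73, 9.01 and 7.46 FPKM in controls. Egln1, the main hydroxylase of the alpha subunits, had 10.9, 11.6 and 15.5 FPKM in I-PpoI mice, against 26.9, 21.9 and 22.6 FPKM in controls. Vhl and Egln1 also did not overlap, and Vhl in I-PpoI mouse 2 is a count of 3 fragments. Egln2 ranged from 11.9 to 28.1 FPKM in I-PpoI mice and from 17.3 to 27.7 FPKM in controls, and overlapped.

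The log2 fold changes were -1.60 (SE 0.47) for Hif1a, -1.48 (SE 0.51) for Epas1, -1.43 (SE 0.49) for Arnt and -1.35 (SE 0.44) for Vhl, each with a limma adjusted p of 0.132. After scaling they were -0.83, -0.64, -0.76 and -0.69, with limma adjusted p from 0.320 to 0.394, and their groups overlapped. Endothelial markers had a median log2 fold change of -1.46 as deposited and -0.64 after scaling, near that of the HIF subunits. Their part in the HIF values was not tested.

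Many members have a gene on the other strand. In 14 members an exon overlaps an exon of the opposite strand, and 20 have an opposite-strand gene within 5 kb of an exon. Of the 15 overlapping models with values here, 10 were above every control in both I-PpoI mice 1 and 2, 7 of them at least 10-fold, and 3 were above every control in I-PpoI mouse 3. Of 13 opposite models within 5 kb without exon overlap, 4 were above every control in both I-PpoI mice 1 and 2, 3 of them at least 10-fold. In I-PpoI mouse 3, 0 of these 13 were above every control. The share over all genes was not computed for these counts. Gm26762, which overlaps an exon of Gpi1, was not analysed here. Gm17035, across from Ndrg1, had 4104, 9921 and 29.2 FPKM in I-PpoI mice, against 19.5, 23.9 and 16.5 FPKM in controls. Gm45507, across from Bnip3, had 485, 706 and 1.01 FPKM in I-PpoI mice, against 0.477, 0 and 0.796 FPKM in controls. Gm15283, across from Hif1a, had 112, 67.5 and 0.223 FPKM in I-PpoI mice, against 0.526, 0.151 and 0.853 FPKM in controls. Fam57b, across from Aldoa, had 278, 293 and 4.60 FPKM in I-PpoI mice, against 6.32, 5.42 and 5.95 FPKM in controls. These models were high where the mitochondrial minus strand was high, and for Gm45507, Gm15283 and Fam57b I-PpoI mouse 3 was close to the controls.

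**Figure D5:**
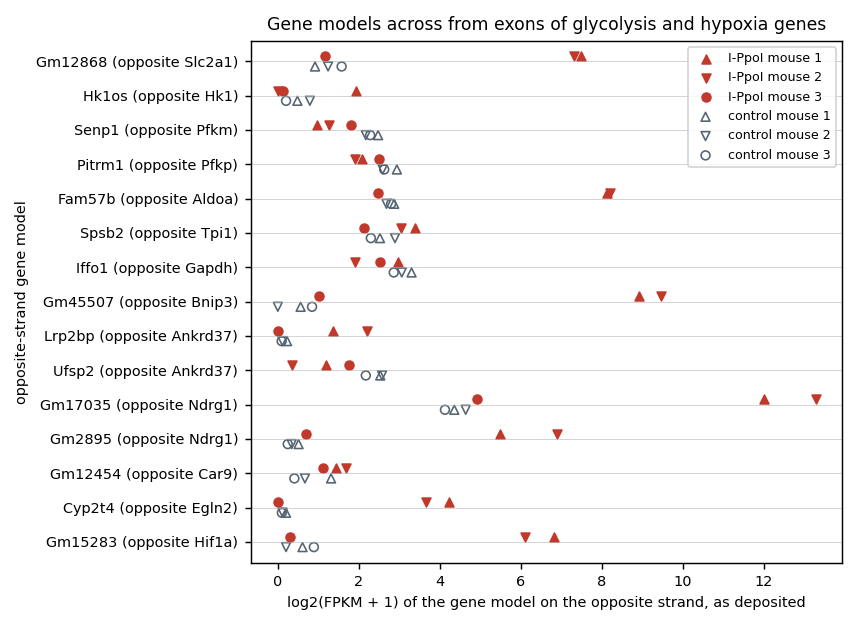
FPKM, as log2(FPKM + 1), of the 15 gene models with values here whose exons overlap a member's exon on the opposite strand, filled symbols for I-PpoI and open for control. In 10 models I-PpoI mice 1 and 2 lie above all controls, by wide margins for Gm45507, Gm17035, Gm15283 and Gm12868.

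The 11 members with no opposite-strand gene within 5 kb were fitted apart, among 3654 such genes, after median-of-ratios scaling on that set. Limma called 0% of these genes, and 0 of the 11 members. This depended on the scaling, since as deposited limma called 1448 genes of the set (39.6%), 12 higher and 1436 lower, and 4 of the 11 members, Ldha, Egln3, Epas1 and Arnt, all lower. The median log2 fold change was 0.21 for the members and -0.03 for all genes of the set. Eno1 (0.98, SE 0.33) and Aldoc (0.69, SE 0.32) were higher without overlap, each with a limma adjusted p of 0.487, against a background of 5.5% higher and 9.39% lower. Aldoc rests on 5 and 4 fragments in I-PpoI mice 1 and 2. Its scaled value in I-PpoI mouse 1 was 1.37, against 1.13 in the highest control, so its lack of overlap is within counting error. Ldhb was 1.12 (SE 0.50), P4ha1 0.21 (SE 0.27), Ddit4 0.08 (SE 0.35), Pfkfb3 0.28 (SE 0.32) and Pkm 0.27 (SE 0.28). Ldha was -0.07 (SE 0.33), Egln3 -0.17 (SE 0.35), Epas1 -0.33 (SE 0.39) and Arnt -0.52 (SE 0.35). With the replicate number as a block, limma called 1 gene of this set, which was lower in I-PpoI mice, and 0 of the 11 members. I-PpoI mice 1 and 2 held 241106 and 79921 fragments on these genes, so their values stay imprecise here too.

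The wider pathway was read from other lists, and 0 of their tested genes were called by limma. As above, 45.1% of all genes were lower and 2.24% higher without overlap as deposited, and 9.76% lower and 7.65% higher after scaling. In the list of other HIF targets, 17 of 22 tested genes were lower and 0 higher without overlap, with a median log2 fold change of -0.78, or -0.20 after scaling with 3 lower and 2 higher. Bnip3l, a mitophagy receptor, had 11.1, 6.49 and 20.9 FPKM in I-PpoI mice, against 38.1, 35.6 and 37.7 FPKM in controls. Hmox1, heme oxygenase 1, had 6.05, 5.45 and 5.14 FPKM in I-PpoI mice, against 8.91, 10.1 and 8.56 FPKM in controls. Both were lower in every I-PpoI library as deposited. In HIF regulation, 6 of 11 tested genes were lower without overlap, with a median of -1.01, or -0.37 after scaling with 2 lower and 1 higher. That share of lower genes as deposited is near the 45.1% of all genes. Eloc, a subunit of the VHL ubiquitin ligase, had 2.47, 1.58 and 7.14 FPKM in I-PpoI mice, against 12.4, 16.4 and 10.9 FPKM in controls. Cited2, a competitor of HIF for its coactivator, had 23.3, 18.5 and 15.2 FPKM in I-PpoI mice, against 20.1, 20.4 and 21.9 FPKM in controls, and overlapped.

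In pyruvate and lactate handling, 8 of 16 tested genes were lower and 1 higher without overlap as deposited, near the background of 45.1% and 2.24%, with a median of -0.76. After scaling the median was -0.0033, with 1 lower and 2 higher. The subunits Pdhb and Dld of pyruvate dehydrogenase had log2 fold changes of -1.38 and -1.72. Gluconeogenesis showed 2 of 7 tested genes lower and 0 higher without overlap as deposited, and a median of 0.26. After scaling it had 0 genes lower or higher without overlap and a median of 1.03. Pck1, phosphoenolpyruvate carboxykinase, had 29.6, 250 and 231 FPKM in I-PpoI mice, against 66.3, 81.3 and 43.8 FPKM in controls. Fbp1, fructose bisphosphatase, had 12.1, 114 and 87.1 FPKM in I-PpoI mice, against 15.3, 47.9 and 25.4 FPKM in controls. Both were above every control in I-PpoI mice 2 and 3 and below every control in I-PpoI mouse 1. The proximal tubule makes glucose, and its markers Lrp2, Cubn, Slc34a1, Slc22a6, Slc22a8, Slc13a3, Slc27a2 and Miox had the same order. Miox had 19.3, 131 and 181 FPKM in I-PpoI mice, against 66.5, 105 and 45.3 FPKM in controls. The markers Slc5a2, highest in I-PpoI mouse 1, and Slc5a12 did not have this order. The part of tubule RNA in the Pck1 and Fbp1 values was not tested. The pentose phosphate pathway had 5 of 7 tested genes lower without overlap as deposited and a median of -0.60, and after scaling 0 of 7 lower and a median of 0.16. Taldo1, transaldolase, had 39.9, 40.1 and 38.7 FPKM in I-PpoI mice, against 56.8, 93.7 and 60.3 FPKM in controls. Other glucose transporters and glycolytic paralogs had 4 of 15 tested genes lower and 0 higher without overlap, a smaller share of lower genes than the 45.1% of all genes, and 0 lower and 1 higher after scaling.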

How the data were processed

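RNA of CD31-sorted kidney endothelial cells from 3 I-PpoI and 3 control mice was sequenced in paired-end mode with 100 cycles, as the labels' protocols state. The deposited matrix gives FPKM, which the authors normalized to gene length and library size. The builds mm10 and GRCm38 are named in the submitters' processing notes. For the aligner, the counter and its strand setting, nothing is given in the sources used here. FPKM times GENCODE M21 exon length, for 55227 matched gene IDs, gave whole fragments, within 0.05, for 98.5 to 98.6% of values under 1000 fragments. The number of other sample columns was 0.

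The unit is FPKM, so limma was fitted to log2(FPKM + 1) over genes averaging 1 FPKM or more, with Benjamini-Hochberg adjustment, and this scale makes fold changes of low genes too small. The labels describe separate mice. Genes with no opposite-strand gene within 5 kb were fitted apart after scaling. Paralog ratios had exact permutation tests. Windows of 50 bases were matched in one orientation, and a model was counted as a copy at 5% of a gene's windows, a limit chosen after its first output was seen. Members, lists and the opposite-strand check were chosen with earlier results of these data known. Values per library are given for the highest gene of each glycolytic step, HIF subunits, Vhl, Egln1, HIF targets and the 3 tested members farthest on each side of the median of all genes. From each other list, up to 2 genes with the largest and 2 with the smallest log2 fold change at a mean of at least 5 FPKM were eligible to be named. An eligible gene is left out of the text. Defining marker genes and opposite-strand models were named after their values were seen.

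Same-numbered libraries deviated together at correlations of 0.09, 0.06 and -0.02 over all genes and 0.26, 0.20 and 0.19 over genes clear of the opposite strand. The labels give no pairing. Correlations between libraries of different numbers were not computed, so these values cannot show whether same-numbered libraries are paired. Intervals and limits for a count of 0 (3 fragments) cover counting error only. On simulated data for I-PpoI against control over 13174 genes, 82.8% of changes of 4-fold were recovered by limma and 8.86% of those of 2-fold. Limma also called 14 unchanged genes there. Every simulated library was drawn from the mean control profile with a fixed dispersion. Opposite-strand fragments, unequal mitochondrial shares and the shift of all genes were not simulated, so this recovery does not measure power in these data. Alternatives covered pseudocounts, filters, scalings, the replicate block, protein-coding genes, limma-voom and left-out libraries. Fits used limma 3.58.1 in R 4.3.3. Tables and figures used pandas 2.3.3, numpy 2.4.6, matplotlib 3.10.9 and scipy 1.17.1 under python 3.11.15.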

Additional observations from a re-analysis of the deposited data

How the results depend on the processing

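Lower pseudocounts (0.1, 0.5), testing every gene above 0, a stricter filter of 5 FPKM, both scalings, protein-coding genes, limma-voom on recovered fragments and leaving out I-PpoI mice 1 and 2 each left 0 genes and 0 members called by limma. The replicate block called 0 genes and 0 members over all genes, and 1 gene clear of the opposite strand, and changed no other call. Leaving out single libraries gave 0 to 8438 genes (2956 higher and 5482 lower without I-PpoI mouse 3), 0 to 12 members, and 0 to 350 genes clear of the opposite strand, 32 of them without I-PpoI mouse 1. As deposited, unscaled genes clear of the opposite strand gave 1448 calls (12 higher and 1436 lower, 39.6% of the set) and 4 members, all lower. The counts for members of that set were added after seeing the data. The cause was not tested.

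Median-of-ratios scaling turned 13 members from below 0 to above it on the log2 scale, namely Slc2a1 0.10, Hk1 0.35, Gpi1 0.23, Pfkl 0.20, Pfkm 0.036, Pfkfb3 0.052, Aldoa 0.45, Tpi1 0.48, Pgam1 0.50, Eno1 0.67, Ldhb 0.81, Ndrg1 0.48 and Egln2 0.53. Leaving out single libraries, the log2 fold change crossed 0 for Pfkp (-0.10 to 0.42), Aldoc (-0.14 to 0.17), Gapdh (-0.11 to 0.71), Pgam1 (-0.57 to 0.021), Ldhb (-0.31 to 0.44), Ndrg1 (-0.83 to 0.16) and Egln2 (-0.57 to 0.018). The log2 ratio of Epas1 to Hif1a ran from -0.25 to 0.76. Depth limits I-PpoI mice 1 and 2 most, where Vhl, Bnip3, Arnt and Aldoc rest on few fragments.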

Other observations

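Opposite-strand models across from other genes of these pathways, chosen after their values were seen, also differed between libraries. Map3k15, across from the pyruvate dehydrogenase gene Pdha1, had 147, 237 and 1.38 FPKM in I-PpoI mice, against 0.769, 0.637 and 0.801 FPKM in control mice. Gm10197, across from the HIF target Mxi1, had 382, 428 and 0.373 FPKM in I-PpoI mice, against 2.16, 1.41 and 2.64 FPKM in control mice. The glycolytic paralog Gapdhs, a sperm form of the enzyme, was listed at 29.8, 13.3 and 0.0466 FPKM in I-PpoI mice, against 0, 0 and 0.0733 FPKM in controls, and Ldhd, a D-lactate dehydrogenase, at 64.1, 33.4 and 5.76 FPKM in that group, against 3.81, 4.39 and 3.50 FPKM in controls. Both have an opposite-strand exon overlapping theirs, and the part of that overlap was not tested.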
